A study of Mus musculus with 22 samples.

Results

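Mbp, Mobp, Mog, Mag, Cnp, Mal, Cldn11, Ermn and Olig1 are 9 genes made by oligodendrocytes, the myelinating glia of the brain, and they were chosen by symbol from the 55385 genes of the index because none of the libraries was made from oligodendrocytes. All 9 passed the filter on low counts, as did 20524 genes in all. The data were ribosome-bound mRNA libraries made by RiboTag, in which Cre recombinase switches on an HA-tagged form of the ribosomal protein RPL22 and anti-HA beads pull down tagged ribosomes with the mRNA on them. All mice were Rpl22 Fl/+, carried a Cre driver and were 6 weeks old. From hippocampus came dentate gyrus (DG) granule cells, with Rbp4-Cre as the driver, and interneurons, with Dlx6a-Cre. From cortex came layer V neurons, again with Rbp4-Cre, astrocytes with Aldh1-cre and microglia with Tmem119-cre, and from cerebellum came granule cells with Gabra6-Cre. The study's methods list the astrocyte and microglial drivers as inducible lines, and mice of such lines received tamoxifen from 3 weeks of age. Each of the 6 cell types had 3 biological replicates and both sexes. Each interneuron library pooled 2 mice. A cell type is thus all cells of the dissected region in which Cre had switched on the tag, at sampling or earlier. Rbp4-Cre gave both DG granule cells and layer V neurons.

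Myelin is the layered membrane that oligodendrocytes wrap around axons. Mbp and Mobp encode small basic proteins that hold its cytoplasmic faces together, Mog and Mag encode immunoglobulin-like proteins of its outer and inner surfaces, Cnp encodes an enzyme of its uncompacted cytoplasm, Mal a membrane proteolipid, Cldn11 the claudin of its tight junctions, Ermn a cytoskeletal protein of late oligodendrocytes, and Olig1 a transcription factor of the lineage. A pull-down of tagged ribosomes carries some RNA of other cells, so transcripts of a cell type that no driver names are commonly read as a measure of such carry-over. No unprecipitated library was analysed here, so the level of these genes in the whole tissue is not known, and RNA carried over from oligodendrocytes cannot be told apart from RNA made in the tagged cells. A bulk library also cannot tell more cells of a type from more RNA per cell.

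The windows upstream of 4 of the genes are shown because myelin genes are known targets of the oligodendrocyte factor Sox10, whose family binds short cores such as ACAAAG and ACAATG. Both cores were searched on both strands (CTTTGT and CATTGT on the other) in the 200 bases from 250 to 51 before the RefSeq start site (GRCm38.p6). Capitals mark the matches, which do not overlap here. Each window is written 5′ to 3′ on the strand of its gene.
Mobp, chr9:120149492-120149691, plus strand: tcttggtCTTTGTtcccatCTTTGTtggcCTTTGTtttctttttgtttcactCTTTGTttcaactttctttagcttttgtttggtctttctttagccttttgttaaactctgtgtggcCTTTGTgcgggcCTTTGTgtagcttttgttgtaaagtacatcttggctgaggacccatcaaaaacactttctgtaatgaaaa
Mag, chr7:30914914-30915113, minus strand: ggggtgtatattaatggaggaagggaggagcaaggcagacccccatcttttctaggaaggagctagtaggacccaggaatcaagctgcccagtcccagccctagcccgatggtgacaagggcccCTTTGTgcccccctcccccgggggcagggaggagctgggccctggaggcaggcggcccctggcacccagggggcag
Cnp, chr11:100574689-100574888, plus strand: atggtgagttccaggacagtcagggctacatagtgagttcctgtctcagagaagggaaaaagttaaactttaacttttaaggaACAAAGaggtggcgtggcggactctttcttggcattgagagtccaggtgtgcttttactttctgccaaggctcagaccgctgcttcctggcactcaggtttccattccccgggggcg
Ermn, chr2:58052915-58053114, minus strand: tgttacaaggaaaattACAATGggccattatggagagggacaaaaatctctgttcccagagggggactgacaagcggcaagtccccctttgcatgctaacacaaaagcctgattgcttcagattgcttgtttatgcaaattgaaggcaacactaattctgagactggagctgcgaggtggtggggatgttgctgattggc

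The Mobp window held 6 matches, all of them CTTTGT, and it was the only 1 of 32514 windows in the table with 6 or more. Mag, Cnp and Ermn held 1 match each, and Mog, Mal and Cldn11 held 0. Of all windows, 21.0% held at least 1 match. The table matched 7 of the 9 genes, Mbp and Olig1 having no entry, and of several Mag starts the one nearest the annotated gene is shown. A match is a stretch of letters and not a measured binding site.

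The summed level of the 9 genes, in TPM (a level corrected for transcript length and scaled to each library's total), differed more between cell types than between replicates. It was 2272, 2393 and 2276 TPM in the 3 interneuron libraries, 1214, 1100 and 1028 TPM in astrocytes and 481, 533 and 555 TPM in microglia. It was 239, 249 and 320 TPM in DG granule cells, 208, 204 and 198 TPM in layer V neurons and 123, 106 and 98.6 TPM in cerebellar granule cells. No library of one cell type overlapped another. The order did not follow the dissected region: the highest and the 4th cell type came from hippocampus, and those in 2nd, 3rd and 5th place from cortex. The mean was 2314 ± 68.9 TPM in interneurons against 269 ± 44.2 TPM in DG granule cells (SD, n = 3), a ratio of 8.59 between pull-downs from the same region.

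Replicates varied least in interneurons, where the median coefficient of variation over the 9 genes was 3.99%, and most in DG granule cells (25.3%) and cerebellar granule cells (20.5%). The 3rd DG granule cell library was the highest of its group for 9 of 9 genes, and the 2nd interneuron library was the highest of its group for 9 of 9. By label the 3rd DG granule cell library came from a male and the others of its group from females. In astrocytes the 3rd library was the lowest for 8 of 9. The replicates that were sequenced again in a second batch gave nearly the same sums, with ratios of batch 2 to batch 1 of 1.01 for DG granule cell replicate 3, 0.991 for layer V neuron replicate 1, 1.01 for cerebellar granule cell replicate 3 and 1.01 for astrocyte replicate 2. Single genes moved most in the cerebellar replicate, from 0.682 for Mog to 1.35 for Mag, where levels were lowest (the lowest value of all was 30 estimated counts, for Mog in cerebellar granule cell replicate 2). The spread between DG granule cell replicates was thus larger than that between repeat libraries of 1 replicate.

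**Figure D1:**
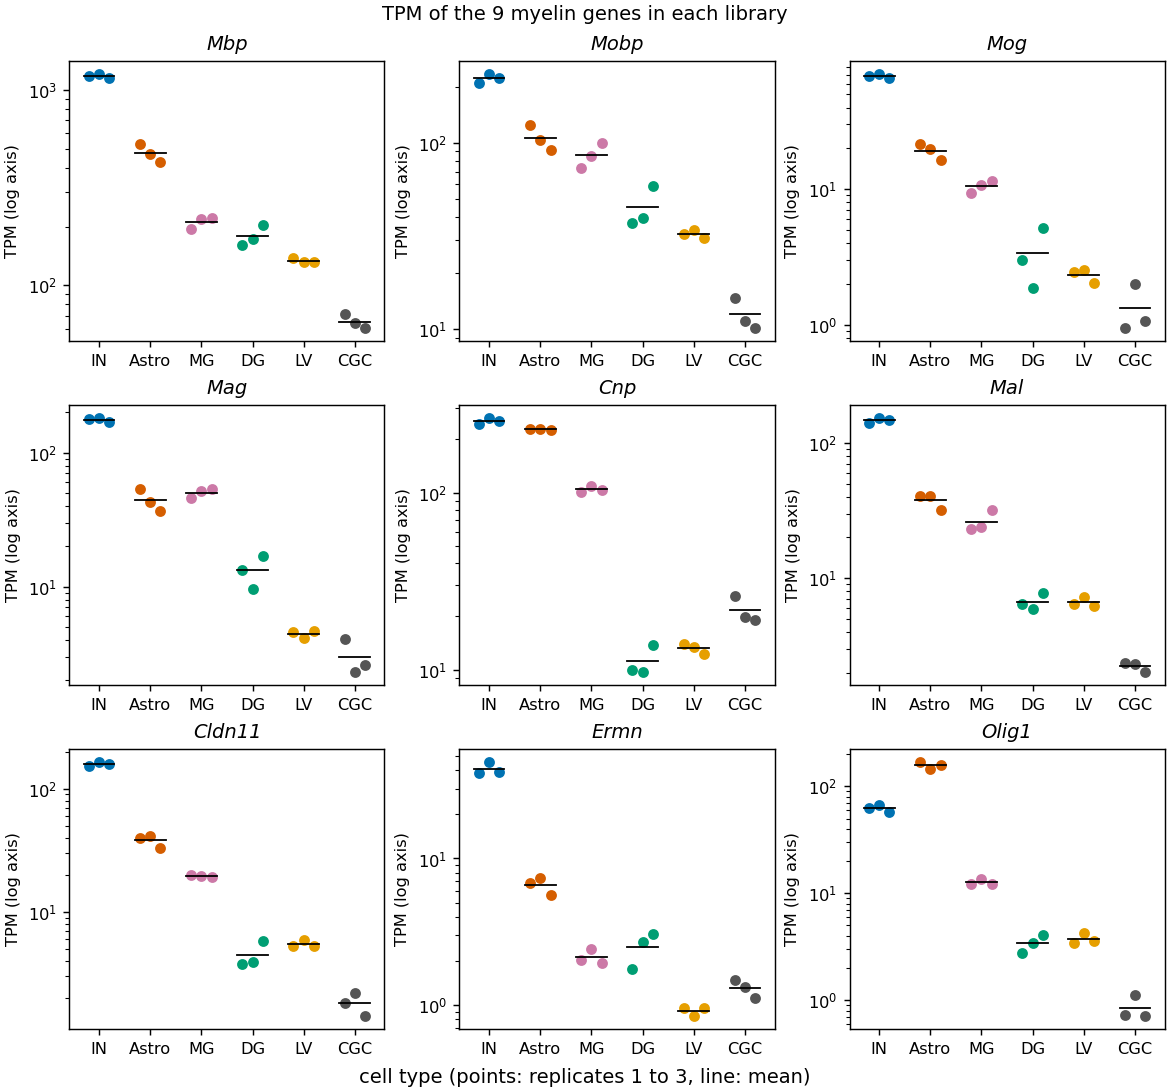
TPM (log axis) of each of the 9 genes by cell type: interneurons (IN), astrocytes (Astro), microglia (MG), DG granule cells (DG), layer V neurons (LV) and cerebellar granule cells (CGC). Points are the 3 libraries and lines their mean. Interneurons are highest for 8 genes and astrocytes for Olig1, and Cnp is the gene in which cerebellar granule cells lie above DG granule cells and layer V neurons.

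Of the genes of compact myelin, Mbp was the most abundant of the 9 in every library. Its TPM was 1178, 1213 and 1160 in interneurons, 528, 473 and 429 in astrocytes and 195, 218 and 222 in microglia. In the remaining neurons it was 160, 173 and 205 in DG granule cells, 138, 132 and 132 in layer V neurons and 71.0, 64.2 and 60.4 in cerebellar granule cells. The microglial libraries overlapped the DG granule cell libraries and no others overlapped. Mobp lay at 209, 234 and 224 TPM in interneurons, 125, 103 and 91.2 TPM in astrocytes and 72.9, 85.1 and 99.2 TPM in microglia. It lay at 37.4, 39.6 and 58.8 TPM in DG granule cells, 32.6, 33.9 and 30.7 TPM in layer V neurons and 14.8, 11.1 and 10.2 TPM in cerebellar granule cells. The astrocyte and microglial libraries overlapped. Most of the Mobp signal (72.1% of its mean TPM) was assigned to 1 transcript, Mobp-204, which the annotation labels as nonsense-mediated decay.

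The surface genes were lower. Mog was at 68.6, 70.9 and 65.7 TPM in interneurons, 21.5, 19.8 and 16.3 TPM in astrocytes and 9.34, 10.8 and 11.5 TPM in microglia, and between 0.944 and 5.19 TPM in the 9 libraries of the other neurons. Mag was at 177, 181 and 170 TPM in interneurons, 53.6, 42.5 and 36.8 TPM in astrocytes and 45.5, 51.4 and 53.2 TPM in microglia. Among the other neurons Mag was at 13.2, 9.61 and 16.8 TPM in DG granule cells, and at 4.57, 4.17 and 4.63 TPM in layer V neurons and 4.08, 2.30 and 2.59 TPM in cerebellar granule cells. Mag thus set DG granule cells apart from the 6 libraries of the other excitatory neurons with no overlap, while the astrocyte and microglial libraries overlapped.

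Cnp, the enzyme, departed from that pattern. It was at 243, 263 and 252 TPM in interneurons, 229, 228 and 225 TPM in astrocytes and 101, 108 and 103 TPM in microglia. Cerebellar granule cells held 25.9, 19.8 and 19.2 TPM, more than the 13.9, 13.4 and 12.3 TPM of layer V neurons and the 10.02, 9.68 and 13.8 TPM of DG granule cells. Cnp was the only 1 of the 9 genes for which every cerebellar library lay above every layer V and DG library.

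The membrane genes Mal and Cldn11 ran closely together. Mal was at 141, 153 and 148 TPM in interneurons, 40.4, 40.2 and 32.0 TPM in astrocytes and 23.3, 23.7 and 31.7 TPM in microglia, and from 2.01 to 7.72 TPM in the other neurons. Cldn11 was at 154, 165 and 160 TPM in interneurons, 40.2, 41.2 and 33.1 TPM in astrocytes and 19.9, 19.7 and 19.4 TPM in microglia, and from 1.42 to 5.88 TPM in the other neurons. In both genes the DG granule cell and layer V neuron libraries overlapped, and the cerebellar libraries lay below them all. Ermn, the cytoskeletal gene, was at 38.1, 45.6 and 38.8 TPM in interneurons, 6.79, 7.33 and 5.64 TPM in astrocytes and only 2.04, 2.39 and 1.92 TPM in microglia, where it overlapped the 1.75, 2.69 and 3.06 TPM of DG granule cells. Its lowest values were the 0.958, 0.835 and 0.952 TPM of layer V neurons.

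Olig1, the transcription factor, had the reverse order at the top. Astrocytes held 169, 145 and 159 TPM against 62.3, 66.4 and 57.9 TPM in interneurons and 12.1, 13.5 and 12.2 TPM in microglia. Layer V neurons held 3.44, 4.25 and 3.55 TPM, DG granule cells 2.76, 3.39 and 4.10 TPM and cerebellar granule cells 0.725, 1.12 and 0.706 TPM. Astrocyte and interneuron libraries did not overlap.

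In hippocampus, all 9 genes were higher in interneurons than in DG granule cells, while most markers of other glia, of vessels, of choroid plexus and of blood were not called higher. Estimated counts were compared with edgeR (quasi-likelihood test, 1 fit over all 18 libraries, p-values adjusted by Benjamini-Hochberg over all genes). Of all genes tested, 31.2% were called higher at an adjusted p under 0.05. The median log2 difference of the 9 genes was 4.14, against -0.04 over all genes tested. Cldn11 differed most (log2 5.09 ± 0.13 SE, 34.0-fold), and Mbp least (log2 1.92 ± 0.06 SE, 3.79-fold, edgeR adjusted p = 5.0e-15). On the length-corrected scale the ratio of mean TPM was highest for Cldn11 as well (35.7), but it was lowest for Mobp (4.92), followed by Mbp (6.61).

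The other genes of myelin, a list of 23, were all 23 called higher in the same comparison, with a median log2 difference of 3.57. Ugt8a, which makes the galactolipids of myelin, differed most (log2 5.11). Gpr37, a receptor of oligodendrocytes that some neurons also make, differed least (log2 0.33, edgeR adjusted p = 0.0039). Of the 4 markers of oligodendrocyte precursors, the cells that give rise to oligodendrocytes, 4 were called higher, with a median of 1.91.

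The markers of other glia, vessels, choroid plexus and blood were mostly not called higher. For endothelial cells, which line vessels, 0 of 5 were called higher and 3 lower (median log2 -0.79), and their summed level was 12.1 to 22.2 TPM in interneurons and 18.02 to 42.5 TPM in DG granule cells. Mural cell markers had 1 of 5 called higher (median 0.08) and red blood cell genes 0 of 5 in either direction (median 0.26). Their summed levels were 15.5 to 19.4 TPM for mural markers and 69.6 to 119 TPM for red blood cell genes in interneurons, against 7.89 to 14.7 TPM and 64.4 to 103 TPM in DG granule cells. Choroid plexus genes had 0 of 4 called higher and 1 lower, microglial markers 1 of 5 higher, and astrocyte markers 1 of 5 higher and 1 lower. Their summed levels in interneurons and DG granule cells were 171 to 282 and 105 to 243 TPM for choroid plexus, 29.2 to 34.0 and 17.8 to 20.3 TPM for microglia, and 58.7 to 70.9 and 65.5 to 96.1 TPM for astrocytes. None of these genes was at 0 in all libraries of either cell type. Beside the 8.59-fold ratio of the summed myelin genes, every gene of the oligodendrocyte and precursor lists was called higher, and these lists of 6 other cell types had at most 1 gene each called higher. Lists of neurons of another region differed from these. Of the 3 markers of cerebellar granule cells, the factors Zic1 (log2 4.65) and Zic2 (3.15) were called higher and the receptor subunit Gabra6 was not (-0.08), with summed levels of 65.4, 51.3 and 4.05 TPM in interneurons against 2.49 to 3.75 TPM in DG granule cells. The first 2 interneuron libraries thus stood far above the 3rd in this list, while their summed myelin levels were 2272, 2393 and 2276 TPM. Of the 3 Purkinje cell markers, Car8 was called higher (3.90), Calb1 lower (-1.77) and Pcp2 neither (0.61). That list was not particular to cerebellum here, at 512 to 583 TPM summed in DG granule cells and 47.8 to 53.5 TPM in cerebellar granule cells. Of the 3 layer V neuron markers, 0 were called higher and 3 lower (median -2.63). They summed to 34.3 to 38.8 TPM in interneurons, 206 to 231 TPM in DG granule cells and 197 to 211 TPM in layer V neurons. This list too was not particular to its cell type here, since it summed to 712 to 745 TPM in cerebellar granule cells.

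The interneuron libraries were all of batch 2 and the DG granule cell libraries of batch 1. Within batch 2, a single DG granule cell library, the repeat of replicate 3, stands against the 3 interneuron libraries, and the log2 differences ran from 1.83 for Mbp to 4.68 for Cldn11. In the batch 2 fits only interneurons and microglia have replicates, so the other cell types, with 1 library each, are assumed to vary as those do. On that assumption 9 of 9 genes were called higher. Interneurons and DG granule cells differ in driver and in the pooling of mice as well as in cell type, which cannot be told apart.

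**Figure D2:**
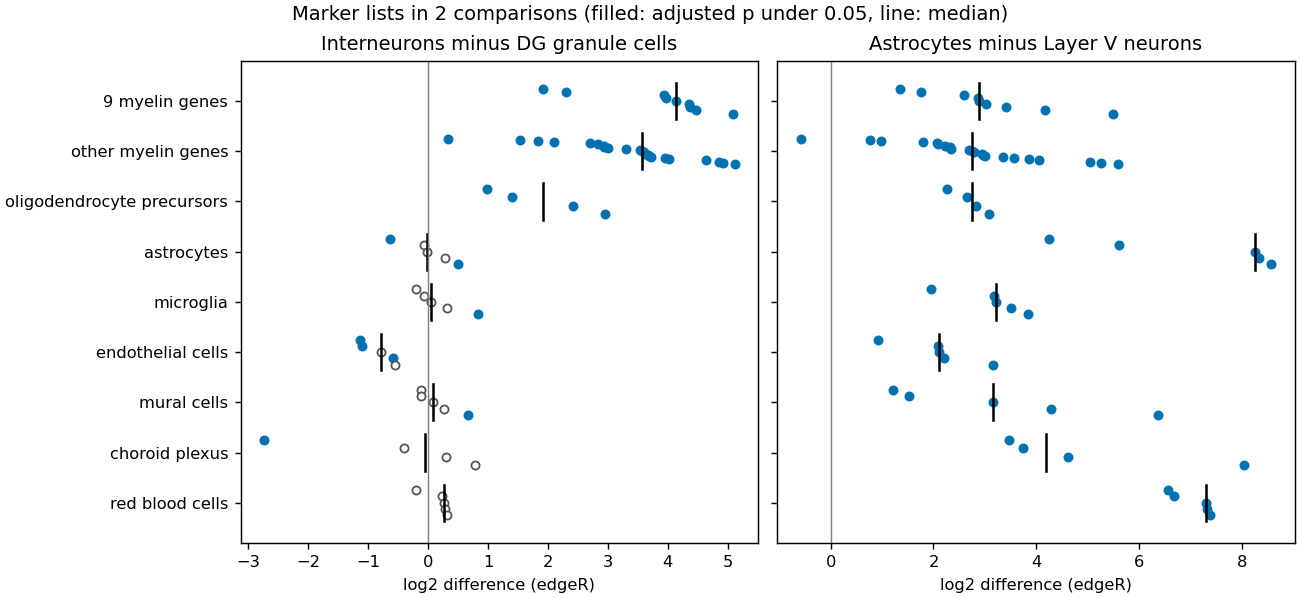
Log2 differences from edgeR for the 9 genes, the other myelin genes and the marker lists of precursors, other glia, vessels, choroid plexus and red blood cells, interneurons minus DG granule cells on the left and astrocytes minus layer V neurons on the right. Filled points passed an adjusted p of 0.05 and black lines are list medians. On the left the myelin and precursor lists lie to the right of 0 and the other lists shown have medians from -0.79 to 0.26, and on the right every list shown has a median above 0.

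In cortex, the 9 genes were also higher in astrocytes than in layer V neurons, but so were all markers of microglia, vessels, choroid plexus, red blood cells and precursors. Here 39% of all genes were called higher, and 9 of 9 of the myelin genes were, with a median log2 difference of 2.90 against 0.02 over all genes. Olig1 differed most (log2 5.49 ± 0.13 SE, edgeR adjusted p = 1.4e-16), then Cnp (4.16 ± 0.12) and Mag (3.40 ± 0.19), and Mbp least (1.35 ± 0.05). Both cell types were of batch 1, and within batch 1 the differences ran from 1.41 for Mbp to 5.55 for Olig1. Of the 23 other myelin genes, 22 were called higher (median 2.75), among them Plekhb1 (log2 5.26) and the lineage factors Nkx2-2 (5.60) and Olig2 (5.06), while Gal3st1, a sulfotransferase of myelin lipids, was called lower (-0.58).

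Red blood cell genes were called higher in 5 of 5 (median log2 7.30), with summed levels of 5664 to 11574 TPM in astrocytes and 61.6 to 110 TPM in layer V neurons. Microglial markers (5 of 5, median 3.22), endothelial markers (5 of 5, median 2.11), mural markers (5 of 5, median 3.16), choroid plexus genes (4 of 4, median 4.18) and precursor markers (4 of 4, median 2.74) were called higher as well. Summed levels in astrocytes against layer V neurons were 75.1 to 92.3 against 16.7 to 18.1 TPM for microglia, 48.1 to 68.5 against 12.7 to 14.4 TPM for endothelial cells and 54.7 to 60.5 against 8.52 to 9.57 TPM for mural cells. They were 11.4 to 14.9 against 2.11 to 2.28 TPM for precursors. Lists of neurons went both ways. Interneuron markers were called higher in 4 of 4 (median 1.72, 76.7 to 116 against 27.8 to 31.8 TPM), and markers of neurons at large lower in 3 of 3 (median -2.68). Choroid plexus genes were high in 1 astrocyte library, at 3672 TPM in replicate 1 against 7.45 and 14.4 TPM in the others, and that replicate was also the highest of its group for 7 of the 9 myelin genes. Without astrocyte replicate 1, 9 of 9 genes were still called higher. The part of these cells in the myelin difference was not tested. Astrocytes and layer V neurons differ in driver and in tamoxifen as well as in cell type, which cannot be told apart.

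Microglia gave a smaller difference from layer V neurons. All 9 genes were called higher (42.7% of all genes were), with a median log2 difference of 1.87 against 0.07 over all genes. Mag differed most (log2 3.62 ± 0.19 SE) and Mbp least (0.20 ± 0.05, edgeR adjusted p = 0.0023). The Mbp call was lost without microglia replicate 3 (log2 0.11, edgeR adjusted p = 0.093), without the filter on low counts (0.12, edgeR adjusted p = 0.12) and with the batch 2 libraries of the replicates sequenced again (0.11, edgeR adjusted p = 0.078). Within batch 2, which has 1 layer V library, it was 0.09 (edgeR adjusted p = 0.31), and 8 of 9 genes were called. Endothelial markers were called higher in 5 of 5 (median 5.03, 296 to 444 TPM summed in microglia), mural markers in 5 of 5 (85.9 to 99.3 TPM), red blood cell genes in 5 of 5 (656 to 1421 TPM), precursor markers in 4 of 4 (13.8 to 15.1 TPM) and choroid plexus genes in 3 of 4 (27.6 to 127 TPM). Astrocyte markers were split, with 3 of 5 called higher and 2 lower (145 to 188 TPM summed in microglia). Their part in the myelin difference was not tested. Driver, tamoxifen and batch differ here along with cell type, and these cannot be told apart.

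Of the 23 other myelin genes, 19 were higher and 2 lower in microglia than in layer V neurons (median log2 1.82). Trf, which encodes the iron carrier transferrin, had a mean of 2433 TPM in microglia, 372 TPM in interneurons and 79.5 TPM in astrocytes, so that it alone made the summed level of the 23 genes higher in microglia (2707 ± 101 TPM) than in interneurons (1967 ± 117 TPM). Per TPM of Mog, Trf was at 234 ± 37.4 in microglia and from 4.11 to 8.74 in the means of the other cell types.

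Set against each other, microglia had less of the myelin genes than astrocytes. None of the 9 was called higher, where 36.3% of all genes were, and 8 were called lower, where 39.8% of all genes were, with a median log2 difference of -0.997 against -0.04 over all genes. Olig1 differed most (log2 -3.69 ± 0.12 SE), then Ermn (-1.72 ± 0.14), and Mag was not called (0.21 ± 0.16, edgeR adjusted p = 0.24). The endothelial list went the other way, with 5 of 5 higher in microglia (median 2.93), as did 4 of 5 mural markers, whereas red blood cell genes were lower in 5 of 5 (median -3.39). Precursor markers were called lower in 1 of 4, with a median of 0.17. The Mobp call (log2 -0.42, edgeR adjusted p = 0.0095) was lost without astrocyte replicate 1 (-0.30, edgeR adjusted p = 0.079) or microglia replicate 1 (-0.27, edgeR adjusted p = 0.11). It was also lost with all libraries when they were scaled to their totals only (-0.30, edgeR adjusted p = 0.079) or when limma was run on TPM (-0.31, limma adjusted p = 0.10). With protein-coding transcripts only, which leave out Mobp-204, it turned to 0.44 (edgeR adjusted p = 0.0093). Astrocytes and microglia were of different batches, and batch 2 holds 1 astrocyte library, the repeat of replicate 2. Against that library, with its spread again taken from the other cell types, 8 genes were called lower and Mag was at 0.24 (edgeR adjusted p = 0.036).

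With the same driver in both regions, layer V neurons and DG granule cells were close. Cnp (log2 0.42 ± 0.11 SE), Cldn11 (0.53 ± 0.13) and Olig1 (0.36 ± 0.14) were called higher in layer V neurons, where 30.3% of all genes were. Mbp (-0.33 ± 0.05), Mag (-1.03 ± 0.19) and Ermn (-1.21 ± 0.17) were called lower, where 33.1% of all genes were. Mobp, Mog and Mal were not called, and the median over the 9 was -0.18 against -0.05 over all genes, so that the calls were split as those over all genes were. The Olig1 call was lost without DG granule cell replicate 1 (0.27, edgeR adjusted p = 0.12) or replicate 2 (0.35, edgeR adjusted p = 0.056) or layer V replicate 2 (0.24, edgeR adjusted p = 0.14), and Mog was called lower without DG granule cell replicate 2 (-0.41, edgeR adjusted p = 0.049). With limma on TPM the 3 higher calls all ended, at 0.25 for Cnp (limma adjusted p = 0.072), 0.29 for Cldn11 (limma adjusted p = 0.076) and 0.13 for Olig1 (limma adjusted p = 0.42), and Mobp was called lower (-0.45, limma adjusted p = 0.028). Mal was called higher without the filter on low counts (0.24, edgeR adjusted p = 0.043). Of the other myelin genes 5 of 23 were higher and 8 lower (median -0.30), and choroid plexus genes (4 of 4), precursor markers (4 of 4) and endothelial markers (4 of 5) were lower in layer V neurons. The lists of other glia, mural cells and blood were mixed. Astrocyte markers had 2 of 5 higher and 2 lower, with 108 to 109 TPM summed in layer V neurons against 65.5 to 96.1 TPM in DG granule cells. Microglial markers had 1 of 5 higher and 1 lower, mural markers 1 of 5 lower, and red blood cell genes 0 of 5 in either direction. Summed levels in layer V neurons against DG granule cells were 1.32 to 14.97 against 105 to 243 TPM for choroid plexus and 2.11 to 2.28 against 3.52 to 5.76 TPM for precursors. The part of these cells was not tested.

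Cerebellar granule cells, set against the mean of the 3 forebrain neuron types, were lower for 9 of 9 genes, where 43% of all genes were. The median log2 difference was -2.71 against -0.21 over all genes, from -3.42 ± 0.15 (SE) for Olig1 to -0.74 ± 0.09 for Cnp. Of the other myelin genes 21 of 23 were lower (median -2.44), and Fa2h, which hydroxylates the fatty acids of myelin lipids, was called higher (0.45). Interneurons are 1 of the 3 types in that mean and carry most of its myelin signal. Within batch 1, which holds no interneurons, 7 of 9 genes were lower, with Mbp at -1.14 and Olig1 at -2.04, Ermn was not called (-0.24, edgeR adjusted p = 0.18), and Cnp was higher in cerebellar granule cells (0.73, edgeR adjusted p = 1.0e-05). Endothelial markers (5 of 5), microglial markers (5 of 5) and precursor markers (4 of 4) were lower too, with summed levels of 3.58 to 6.68, 9.14 to 10.9 and 0.541 to 0.641 TPM in cerebellar granule cells. Mural markers (4 of 5) and choroid plexus genes (4 of 4) were lower as well, at 0.971 to 3.80 and 0.720 to 2.36 TPM, and of the red blood cell genes 1 of 5 was (29.6 to 102 TPM). The part of these cells was not tested. Each of the 6 comparisons shares libraries with at least 1 other.

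**Figure D3:**
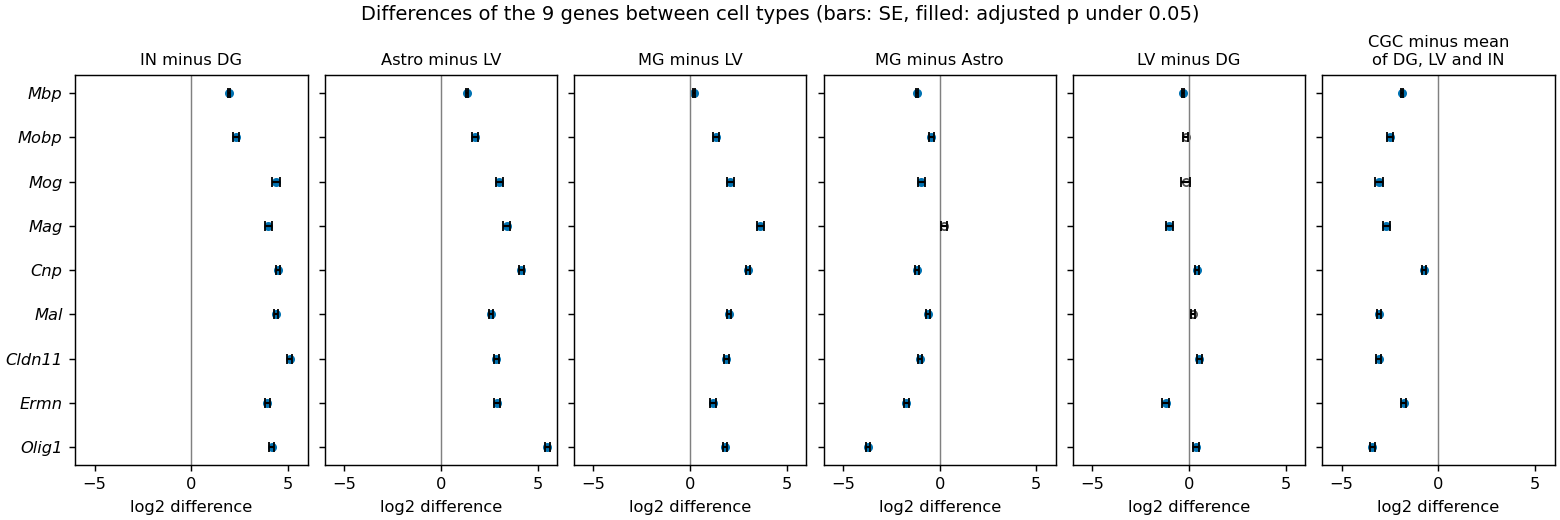
Log2 differences from edgeR with SE for the 9 genes in the 6 comparisons, with cell types abbreviated as in the plot of TPM by library. Filled points passed an adjusted p of 0.05 and open points did not. The 9 genes lie to the right of 0 in the first 3 panels, none is called higher in microglia than in astrocytes, both directions occur between layer V neurons and DG granule cells, and all lie to the left of 0 in cerebellar granule cells.

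Across all 6 cell types each of the 9 genes differed (edgeR test of any difference, adjusted p from 4.7e-19 to 1.1e-13). With cell types ordered by the mean CPM of each gene (counts scaled to the library total adjusted by the TMM factors of edgeR), most neighbours in the order differed. Those that were not called were astrocytes and interneurons for Cnp (edgeR adjusted p = 0.31), microglia and astrocytes for Mag (0.24), DG granule cells and microglia for Ermn (0.86) and cerebellar granule cells and layer V neurons for Ermn (0.11). The remaining uncalled neighbours were DG granule cells and layer V neurons, for Mobp (0.27), Mog (0.48) and Mal (0.14). By TPM 3 of these neighbours changed places. For Mbp, DG granule cells were above microglia by CPM (285 against 260, edgeR adjusted p = 0.033) and below them by mean TPM (179 against 212). For Cnp astrocytes were first by CPM and interneurons by TPM, and for Mal layer V neurons were above DG granule cells by CPM (9.97 against 8.67) and just below them by TPM (6.61 against 6.69). Over all genes, the share called in either direction was 73.2% between interneurons and astrocytes, 80.8% between interneurons and microglia, 76.1% between astrocytes and microglia and 74.2% between astrocytes and DG granule cells. It was 79.8% between microglia and DG granule cells, 83.2% between microglia and layer V neurons and 85.5% between microglia and cerebellar granule cells. Among the other neurons it was 63.4% between DG granule cells and layer V neurons, 76.1% between layer V neurons and cerebellar granule cells and 73.9% between DG and cerebellar granule cells.

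The genes did not keep 1 ratio across cell types. Mbp made up 66.8 ± 2.66% of the summed TPM in DG granule cells, 66.0 ± 1.22% in layer V neurons and 59.7 ± 1.86% in cerebellar granule cells (SD, n = 3), but 51.2 ± 0.61% in interneurons, 42.7 ± 0.93% in astrocytes and 40.5 ± 0.44% in microglia. Cnp made up 4.14 ± 0.23% in DG granule cells and 6.50 ± 0.25% in layer V neurons against 19.7 ± 1.23% in cerebellar granule cells, 20.5 ± 1.52% in astrocytes and 20.0 ± 1.21% in microglia. Olig1 made up 14.2 ± 1.16% in astrocytes and from 0.786% to 2.69% in the means of the other cell types. The 9 libraries of the neurons other than interneurons did not overlap with the other 9 in the share of Mbp. That share includes transcripts from upstream first exons, described below. They made up 49.5% of Mbp TPM in DG granule cells, 35.1% in layer V neurons and 48.9% in cerebellar granule cells. In interneurons, astrocytes and microglia they made up 1.10%, 1.53% and 7.11%.

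**Figure D4:**
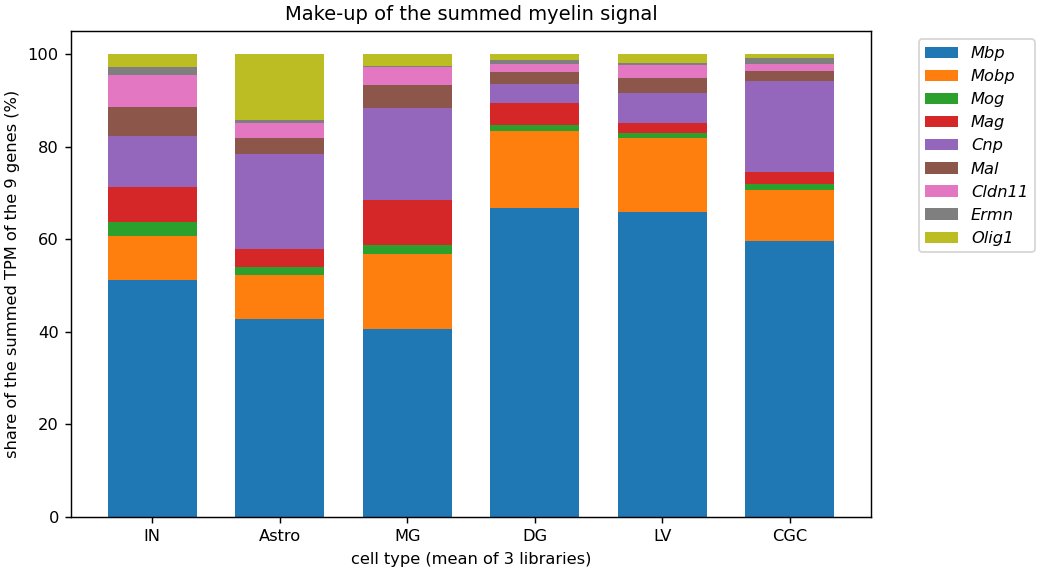
Share of each gene in the summed TPM of the 9 (%), as the mean of 3 libraries per cell type, with cell types abbreviated as in the plot of TPM by library. Mbp, with its upstream transcripts included, fills 66.8% of the bar in DG granule cells and 40.5% in microglia. Cnp is large in astrocytes, microglia and cerebellar granule cells, and Olig1 is visible mainly in astrocytes.

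The Mbp locus (GRCm38, chromosome 18, 82475146 to 82585637, plus strand) has upstream and downstream first exons 79.3 kb apart. The upstream first exons, where 4 annotated transcripts start, give the golli forms, which are known from neurons and immune cells as well as oligodendrocytes. The downstream ones, where 12 transcripts start, give the classic forms of myelin. The downstream transcripts summed to 1171 ± 26.8 TPM in interneurons, 469 ± 47.9 TPM in astrocytes, 197 ± 13.6 TPM in microglia, 91.4 ± 23.99 TPM in DG granule cells, 87.0 ± 3.95 TPM in layer V neurons and 33.4 ± 4.72 TPM in cerebellar granule cells (SD, n = 3). The upstream transcripts were instead higher in the neurons other than interneurons, with 87.7 ± 4.51 TPM in DG granule cells, 47.1 ± 1.39 TPM in layer V neurons and 31.8 ± 0.89 TPM in cerebellar granule cells. They were lower in the rest, with 15.1 ± 1.21 TPM in microglia, 13.0 ± 1.03 TPM in interneurons and 7.38 ± 1.94 TPM in astrocytes. Among DG granule cells, layer V neurons and cerebellar granule cells the order was the same for both kinds, as was that of interneurons above astrocytes. Upstream transcripts thus made up 49.5 ± 6.67% of Mbp TPM in DG granule cells and 48.9 ± 3.11% in cerebellar granule cells, but 1.10 ± 0.08% in interneurons. Of the estimated Mbp counts, on which edgeR was run, they made up 70.1% in DG granule cells and 69.7% in cerebellar granule cells. The share of counts was 55.7% in layer V neurons, 13.5% in microglia, 3.04% in astrocytes and 2.36% in interneurons. Both kinds share exons, so the split rests on the estimate made by the quantifier.

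Without the upstream transcripts, a setting chosen after seeing the data, Mbp moved toward the other 8 genes. Its log2 difference was 3.62 in place of 1.92 between interneurons and DG granule cells, 2.48 in place of 1.35 between astrocytes and layer V neurons and 1.17 in place of 0.20 between microglia and layer V neurons. Between layer V neurons and DG granule cells it changed sign, from -0.33 to 0.22, and was not called (edgeR adjusted p = 0.13). The summed level of the 9 genes was then 181 TPM in DG granule cells, 156 TPM in layer V neurons and 77.6 TPM in cerebellar granule cells. Downstream Mbp was 91.4, 87.0 and 33.4 TPM of these sums. In interneurons it was 1171 TPM of a sum of 2314 TPM that still held the upstream transcripts. By these means the Mbp share in cerebellar granule cells lay below that in interneurons, and the share in DG granule cells was about level with it. In layer V neurons the share still lay above that in interneurons.

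**Figure D5:**
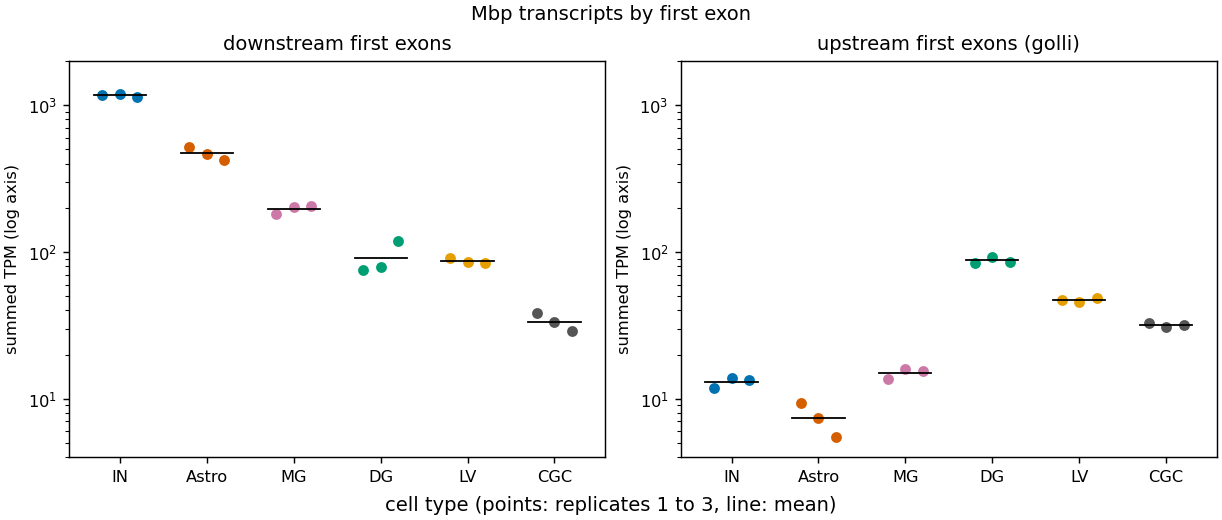
Summed TPM (log axis, same range in both panels) of Mbp transcripts that start at the downstream first exons (left) and at the upstream, golli first exons (right), with points for the 3 libraries of each cell type and lines for their mean. Interneurons are highest on the left at a mean of 1171 TPM, and DG granule cells are highest on the right at 87.7 TPM.

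The other 8 genes lie elsewhere in GRCm38 and have no neighbour among the 9. Mobp lies on chromosome 9 (120149707 to 120181484), Mog on chromosome 17 (37010743 to 37023398), Mag on chromosome 7 (30899176 to 30914873) and Cnp on chromosome 11 (100574904 to 100591729). Mal (127633226 to 127656695) and Ermn (58045113 to 58052864) both lie on chromosome 2, Cldn11 on chromosome 3 (31149920 to 31164324) and Olig1 on chromosome 16 (91269772 to 91271933). Cldn11, Ermn and Olig1 have 1 annotated transcript each.

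The genes with the pattern most like that of the 9 were sought among 14642 genes by Pearson's r over 18 libraries, between log2 CPM and the mean of the 9 standardized genes, as a description in which the points share cell types. Among the first 10 were Opalin (r = 0.989), Enpp6 (0.989), Sox2ot (0.988) and Sox10 (0.987). Then came Aspa (0.983), Bcas1 (0.983), Anln (0.982), Lbh (0.981) and Mob3b (0.980). Of these, Opalin, Enpp6, Sox10, Aspa and Bcas1 are in the list of 23 other myelin genes. Among the 9 themselves r ran from 0.744 for Mbp and Cnp to 0.995 for Mal and Cldn11.

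Library totals lay between 38270477 and 97992957 estimated counts over the 22 libraries. Sex-linked genes matched the label in 21 of 22 libraries, the exception being the batch 2 library of layer V neuron replicate 1, which is outside the main comparisons.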

How the data were processed

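Ribosome-bound mRNA was measured in 22 libraries, 3 biological replicates of 6 cell types with 4 replicates sequenced in both batches. Per the labels and the study's methods, the authors trimmed reads with cutadapt 3.5 and deposited kallisto 0.46.2 estimated counts per transcript, not normalized, over GENCODE M24 transcripts of GRCm38. The deposited TPM values are the authors' length-corrected levels. Both were summed over the transcripts of a gene. For replicates sequenced in both batches, the batch 1 library was used.

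Estimated counts were rounded and tested with edgeR 4.0.16 (quasi-likelihood, filterByExpr, TMM, cell type only, 18 libraries), with DESeq2 1.42.0 and limma 3.58.1 on log2(TPM + 0.5) as alternatives, in R 4.3.3, and other steps ran in Python 3.11.15 with pandas 2.3.3, numpy 2.4.6 and matplotlib 3.10.9. Calls were made at an adjusted p under 0.05. P-values set the difference between cell types against the spread between replicate libraries, which was estimated jointly over the 18 libraries. Batch could not enter the fit, since all microglia and interneurons were of batch 2 and all other libraries used of batch 1. The fit was tested on simulated data. Other alternatives were totals without TMM, no filter, protein-coding transcripts, batch 2 libraries, batch as a covariate, within-batch fits, a replicate block and leaving out each replicate.

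The 9 genes and all lists were chosen with earlier results of these data known. Genes named are the 9, up to 6 of the 23 other myelin genes per comparison, and the 10 genes with the most similar pattern at a mean of at least 1 CPM (prior count 2), except items that are not reported here. Positions came from GENCODE M21, which held all transcripts of the 9 under the same identifiers, and upstream windows from RefSeq (GRCm38.p6).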

Additional observations from a re-analysis of the deposited data

How the results depend on the processing

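The calls of 9 of 9 genes higher in interneurons than in DG granule cells, 9 of 9 higher in astrocytes than in layer V neurons and the summed TPM order stood under every alternative run. Over the single genes, 544 values kept direction and side of the threshold under the settings other than leaving out a replicate, 12 lost and 4 gained a call, and 7 changed sign. Of the sign changes, 4 were of genes called in the comparison: Mobp between microglia and astrocytes with protein-coding transcripts only (0.44), Olig1 between layer V neurons and DG granule cells within batch 2 (-0.0091), Cnp in cerebellar granule cells within batch 1 (0.73) and Mbp between layer V neurons and DG granule cells without upstream transcripts (0.22), the last added after seeing the data. The other 3 were of genes not called, all between layer V neurons and DG granule cells: Mobp with protein-coding transcripts only (0.018) and Mal within batch 2 (-0.076) and with limma on TPM (-0.012). Counts of calls that moved by more than 1.5 times, or to or from 0, were genes higher in microglia than in astrocytes (1 in place of 0, with protein-coding transcripts and within batch 2), higher in layer V neurons than in DG granule cells (0 in place of 3, within batch 2, which has 1 library of each, and with limma on TPM) and higher in cerebellar granule cells (1 in place of 0, within batch 1). Smaller moves were 8 in place of 9 genes higher in microglia than in layer V neurons (no filter, batch 2 libraries for the repeated replicates, within batch 2) and 7 in place of 8 lower in microglia than in astrocytes (no TMM, protein-coding transcripts, limma). Between layer V neurons and DG granule cells 4 (no filter) or 2 (batch as a covariate) in place of 3 were higher, and 4 (within batch 2, limma) or 2 (Mbp without upstream transcripts) in place of 3 lower. In cerebellar granule cells 7 in place of 9 were lower within batch 1. Apart from the construction of each setting, the cause was not tested. Without Mbp the summed TPM was 1130 in interneurons, 637 in astrocytes, 311 in microglia, 90.1 in DG granule cells, 69.2 in layer V neurons and 44.2 in cerebellar granule cells. With protein-coding transcripts only it was 2083, 1003, 443, 225 and 173 TPM in the first 5 of these, and without upstream Mbp transcripts 181, 156 and 77.6 TPM in DG granule cells, layer V neurons and cerebellar granule cells.

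Leaving out 1 replicate at a time gave 9 to 9 genes higher and 0 to 0 lower in interneurons against DG granule cells and in astrocytes against layer V neurons, 8 to 9 higher and 0 to 0 lower in microglia against layer V neurons, 0 to 0 higher and 7 to 8 lower in microglia against astrocytes, 2 to 3 higher and 3 to 4 lower in layer V neurons against DG granule cells, and 0 to 0 higher and 9 to 9 lower in cerebellar granule cells. Between layer V neurons and DG granule cells the uncalled differences of Mobp (-0.28 to 0.014) and Mog (-0.41 to 0.19) changed sign without DG granule cell replicate 3, and Mog was called lower without replicate 2. The summed TPM then ranged from 2274 to 2335 in interneurons, 1064 to 1157 in astrocytes, 507 to 544 in microglia, 244 to 285 in DG granule cells, 201 to 206 in layer V neurons and 103 to 115 in cerebellar granule cells. With the replicate number as a block, 9 of 9 genes were higher in interneurons than in DG granule cells, 3 were higher and 3 lower in layer V neurons than in DG granule cells, and no call of the 9 genes changed. Same-numbered replicates did not deviate together in any pair of cell types (no pair had all 3 correlations over 0.1), so the numbers were taken as names and not as a pairing. Depth limits Mog and Olig1 most in cerebellar granule cells, where counts were lowest.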
